A study of Homo sapiens with 8 samples.

Results

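The transcripts of 63 splicing factor genes were followed in Molm13 and THP1 cells after knockdown of PRMT9. The genes were taken by their names from the 57992 genes of the Molm13 table. They were the genes named SF3A or SF3B (9), SNRP (12), SRSF (12) and HNRNP (25). The single genes U2AF1, U2AF2, KHDRBS1, NONO and SFPQ were also taken. The name patterns matched 168 rows, and 105 rows whose symbols mark them as numbered copies (processed pseudogenes in most cases) were dropped. All 63 are annotated as protein-coding in GENCODE release 29. SF3B2 is a known substrate of PRMT9, an enzyme that places symmetric dimethylarginine on its targets, and the question asked here is whether the genes around this substrate changed in transcript level.

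Molm13 and THP1 are established human AML lines of monocytic type with MLL fusions. Cells carried an inducible shRNA, shCtrl (labelled WT) or shPRMT9 (labelled PRMT9 knockdown), and all of them, the controls included, were given doxycycline (Dox). Each of the 4 groups held 2 libraries of polyadenylated RNA, 8 in all. Each line is a single line and the labels do not say whether the libraries of a group came from separate cultures, so p-values measure the spread between these libraries, which may be technical. The time under Dox is not given for these libraries in the sources used here. The shPRMT9-1 and shPRMT9-2 labels were taken as replicate numbers, although hairpins are numbered like this elsewhere in the study, and the THP1 library names carry the letters OCI, which denote other leukemia lines.

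An intron is removed by the spliceosome, which is built from small nuclear ribonucleoproteins (snRNPs) on each pre-mRNA. The Sm proteins form the ring on which U1, U2, U4 and U5 snRNPs are assembled. U2AF binds the 3′ splice site, and SF3A and SF3B, parts of the U2 snRNP, hold U2 at the branch point. SR proteins (SRSF genes) mostly promote the use of nearby exons, and hnRNPs, abundant proteins that coat nascent RNA, often oppose them. Many SR and hnRNP genes limit their own transcripts through unproductive splicing. In AML, SF3B1, SRSF2 and U2AF1 are known sites of recurrent mutation. Gene-level read counts, the measurement used here, show the amount of transcript and not how it was spliced.

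PRMT9 itself was lower in every shPRMT9 library, with counts of 332 and 289 against 41 and 56 in Molm13 and 317 and 352 against 60 and 68 in THP1. Library totals ran from 18720950 to 27356870 counts. SPI1, CD33, LYZ and CEBPA, which mark myeloid cells, were present in all libraries, while the T cell genes CD3D, CD3E and CD3G and the B cell gene MS4A1 were below 1 RPKM (counts scaled to exon length and library size) in each of them. TRAC, another T cell gene, stood at 0.929 to 1.70 RPKM in Molm13 and at no more than 0.268 in THP1. PAX5, a B cell factor, stood at 4.13 to 4.55 RPKM in Molm13 and 0.268 to 1.27 in THP1. MEIS1, a common target of MLL fusions, stood at 6.51 to 8.06 RPKM in Molm13 but at no more than 0.0332 in the libraries labelled THP1. HOXA9, another such target, was at 17.6 to 24.8 RPKM across all libraries. Of 5 HOXB genes, 0 passed 1 RPKM in any Molm13 library and 2 did in the libraries labelled THP1. The higher of these, HOXB4, stood at 1.51 to 1.79 RPKM there and at no more than 0.0250 in Molm13.

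Promoter sequences are shown for SF3B1, the SF3 subunit with the largest rise, SF3B2, the PRMT9 substrate, and HNRNPAB, the member with the largest fall. They come from RefSeq on GRCh38.p14 and cover 250 bases before and 50 after a listed start, of which SF3B1 has 2 and only the downstream start is shown. Letters in capitals match 1 of 4 short motifs searched on both strands: CACGTG (E-box), CCGGAAG (ETS), GCATGCG (NRF1) and ATGGCGG (YY1).
SF3B1 (chr2:197434979-197435278, minus strand): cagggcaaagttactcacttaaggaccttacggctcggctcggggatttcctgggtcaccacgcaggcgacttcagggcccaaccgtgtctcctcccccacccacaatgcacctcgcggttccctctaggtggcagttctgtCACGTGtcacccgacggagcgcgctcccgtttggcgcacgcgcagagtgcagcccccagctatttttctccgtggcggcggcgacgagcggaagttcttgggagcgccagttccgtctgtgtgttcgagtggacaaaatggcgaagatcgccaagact
SF3B2 (chr11:66052114-66052413, plus strand): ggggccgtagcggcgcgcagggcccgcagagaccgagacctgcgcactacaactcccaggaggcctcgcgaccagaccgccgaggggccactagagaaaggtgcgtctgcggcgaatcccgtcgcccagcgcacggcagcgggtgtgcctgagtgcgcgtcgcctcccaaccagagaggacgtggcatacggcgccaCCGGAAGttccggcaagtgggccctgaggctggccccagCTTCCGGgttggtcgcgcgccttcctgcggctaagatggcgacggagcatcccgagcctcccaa
HNRNPAB (chr5:178204283-178204582, plus strand): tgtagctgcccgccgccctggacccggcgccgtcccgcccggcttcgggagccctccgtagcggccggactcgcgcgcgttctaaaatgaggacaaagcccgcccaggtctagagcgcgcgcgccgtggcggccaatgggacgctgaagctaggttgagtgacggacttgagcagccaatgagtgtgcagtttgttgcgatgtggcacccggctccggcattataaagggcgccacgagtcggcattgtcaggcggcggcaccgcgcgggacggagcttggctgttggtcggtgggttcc
SF3B1 held an E-box, SF3B2 held the ETS letters on each strand, and HNRNPAB held none of the 4 motifs. Of the 63 genes, 57 had an entry, in 80 windows. Windows of the same gene can overlap, so shares of windows are not shares of genes. The ETS letters stood in 26.2% of these windows and in 10.3% of all 35116 windows, the E-box in 13.8% and 7.26%, YY1 in 13.8% and 5.55%, and NRF1 in 8.75% and 3.91%. Among windows of genes lower in Molm13, 16 of 55 held the ETS letters, and among windows of genes that were higher there, 4 of 16 did. The set of 35116 windows was not limited to genes expressed in these lines, while most members were expressed. Shares among windows of expressed genes were not computed. A match of letters describes the sequence and does not show that a factor binds. The genes not in the table are HNRNPA1, HNRNPCL3, SF3B3, SFPQ, SNRPD1 and SRSF2.

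Splicing factor transcripts were abundant in both lines. A mean above 1 RPKM in shCtrl was reached by 58 of the 63 genes in Molm13 and 57 in THP1. The highest level in Molm13 belonged to HNRNPF, at 266 and 271 RPKM in shCtrl, followed by HNRNPA2B1 at 261 and 259, then HNRNPU at 208 and 214 and SRSF1 at 162 and 160. HNRNPF and HNRNPA2B1 were close, whereas the steps to HNRNPU and to SRSF1 were wider than the spread between libraries. This order leaves out counts on numbered copies. HNRNPK, at 126 and 125 RPKM in Molm13 shCtrl, had 36.1% of the counts on it and its copies placed on the copies. The highest level in THP1 belonged to HNRNPA2B1, at 252 and 248 RPKM, followed by HNRNPAB at 176 and 176 and HNRNPK at 163 and 159. SRSF12 and HNRNPCL2, HNRNPCL3 and HNRNPCL4 were below 0.2 RPKM in every library. U2AF1 was near 0 in both tables, with 28 to 51 counts per library over 11112 bases of exon. A near-identical copy of U2AF1 exists in this genome build, and reads shared between the copies can go uncounted, so its level is uncertain.

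The tables of the lines treated numbered copies differently. In the Molm13 table, 73.2% of the counts on SNRPG and its 20 copies lay on the copies, against 0.488% in the THP1 table. HNRNPK had 36.1% of such counts on copies in Molm13, SNRPE 34.0% and HNRNPL 29.9%, against 0.0894%, 0.379% and 0.253% in THP1. In all, 10 of the 26 genes with copies had over 15% of their counts on them in Molm13 and 0 had in THP1, where the highest share was the 1.87% of HNRNPA1. The plot of counts on copies shows that the shares hardly differed between the 4 libraries of a table. HNRNPCL1, an intronless relative of HNRNPC, followed the same pattern, with 95 to 128 counts in Molm13 and 0 or 1 in THP1. Levels of these genes are therefore given within a line only, and line and table cannot be told apart. Adding the copies to their genes, an alternative chosen after seeing the data, left the counts of genes called in each line as they were.

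**Figure D1:**
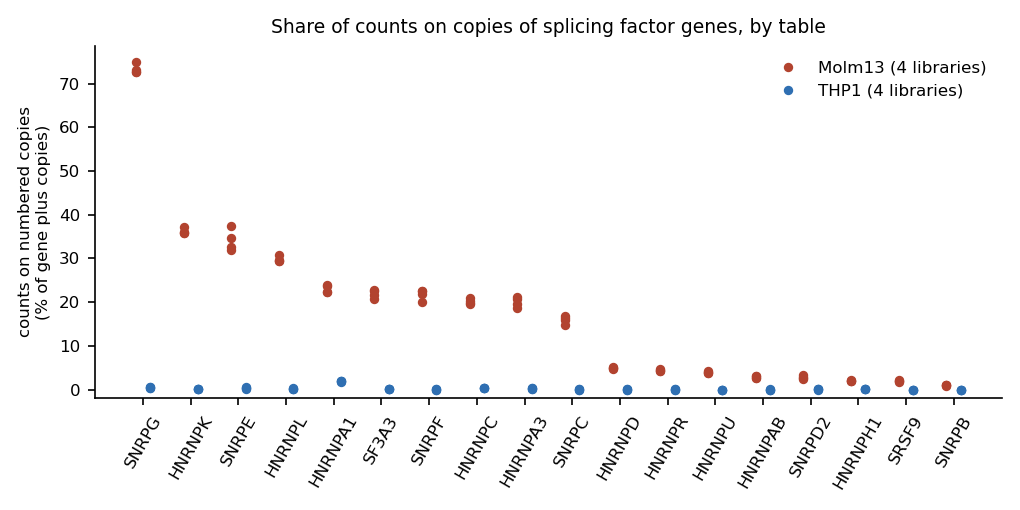
Counts on numbered copies as a percentage of the counts on the gene and its copies (y axis), for genes with over 1% in Molm13 (x axis), 1 point per library. Molm13 shares reach 73.2% for SNRPG, while the THP1 points lie at or below 1.93% for every gene shown.

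In Molm13, most splicing factor transcripts fell with shPRMT9. Of the 59 genes with enough counts to be tested, 44 were lower and 9 higher at an FDR below 0.05, and 6 were not called. Over all 16446 genes tested in this line, 33.5% were lower and 33.4% higher. The median log2 fold change of the members was −0.33 and that of all genes 0.00047. Groups did not overlap, with both shPRMT9 libraries below both shCtrl libraries, for 46 members, and with both above for 11, against 40.8% and 41.2% of all genes. Together the 63 genes took 2.09% and 2.08% of the counts in shCtrl and 1.68% and 1.69% in shPRMT9. In bulk RNA, fewer cells of a kind and less RNA per cell cannot be told apart.

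The falls in Molm13 were of moderate size. A DEG was a gene with an FDR below 0.05, a change of more than 1.5-fold and more than 1 RPKM in at least 1 library. By these limits 11 members were lower, beside 11.3% of all genes, and 0 were higher, beside 11.4%. At an unadjusted p under 0.05, 0 members rose past the fold limit in edgeR, and DESeq2 also gave 0. SNRPD3, SNRPG, SRSF1, SRSF2, SRSF8, HNRNPA0, HNRNPA2B1, HNRNPAB, HNRNPF, HNRNPR and SFPQ passed. SRSF2 and SFPQ, at log2 fold changes of −0.63 and −0.64, lay just inside the fold limit, and SNRPD1, at −0.58, just outside.

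THP1 gave a different picture. Of 59 tested members, 16 were higher and 17 lower at an FDR below 0.05, and 26 were not called, while 19% of all 16294 genes were higher and 18.6% lower. Their median log2 fold change was −0.031, and that of all genes was −0.00063. Without shCtrl replicate 1 of THP1, the members' median was −0.0096. Groups did not overlap for 19 members that were higher and 28 that were lower, beside 33% of all genes in each direction. No member was a DEG (0 higher, 0 lower), where 3.83% of all genes were higher and 2.39% lower by the same limits. Without shPRMT9 replicate 1 of THP1, 1 member, SNRPD3, passed as lower. DESeq2 also gave 0 in each direction, and without the fold limit 16 members rose and 18 fell at an unadjusted p under 0.05 in edgeR. The 63 genes took 1.85% and 1.85% of the counts in shCtrl and 1.80% and 1.78% in shPRMT9, so the shPRMT9 libraries were the lower ones here too, by a smaller step.

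**Figure D2:**
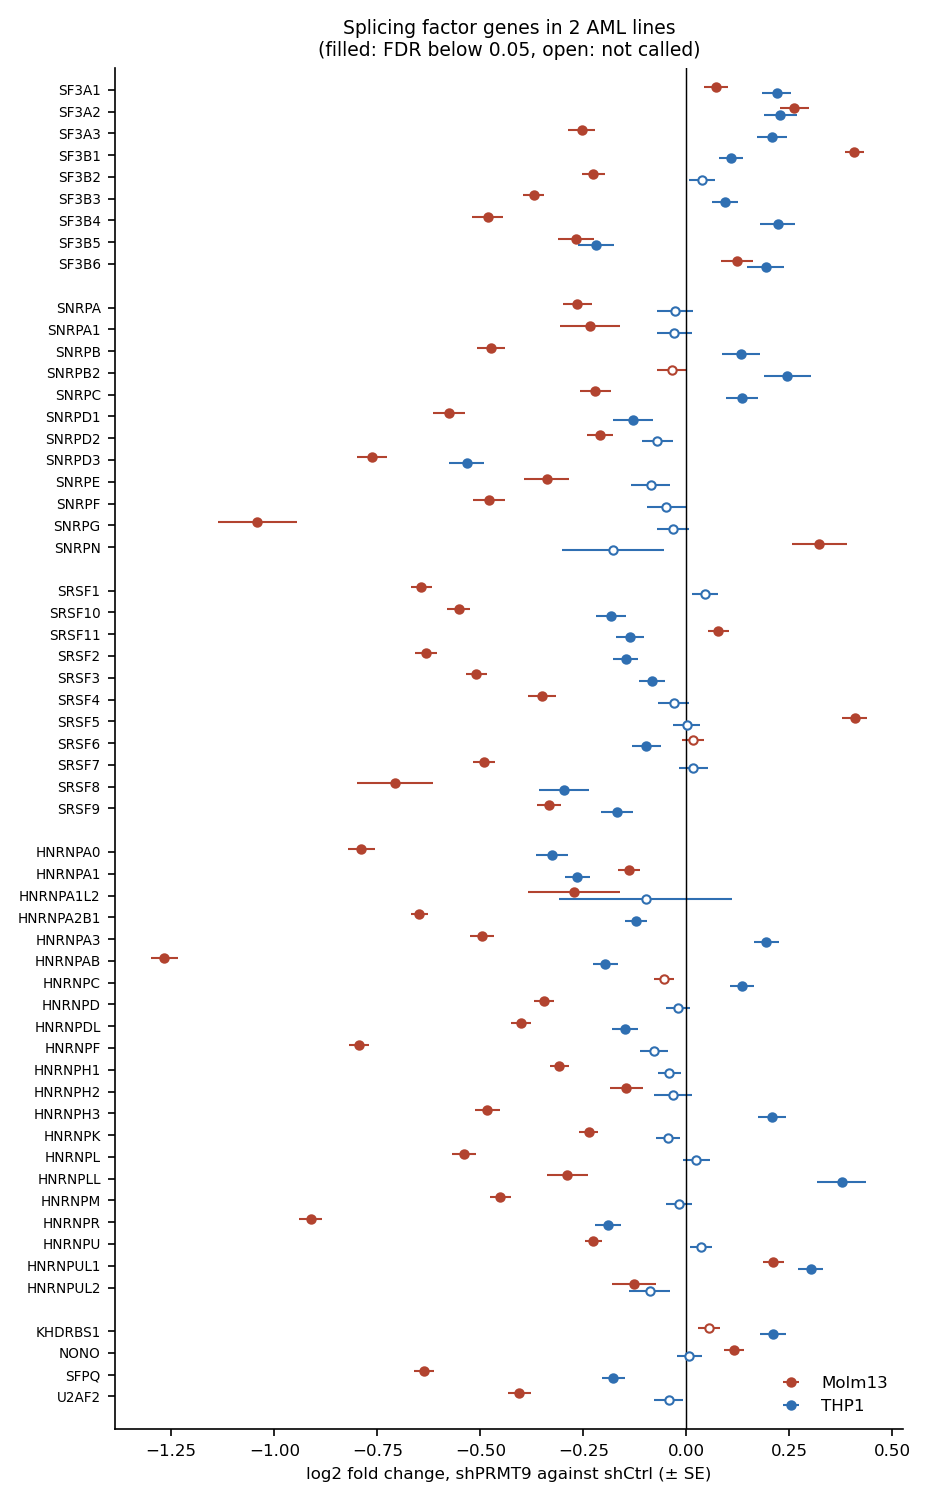
Log2 fold change of shPRMT9 against shCtrl (x axis, bars ± SE, 2 libraries per group) for the 57 members tested in both lines other than U2AF1, grouped by family. Filled points have an FDR below 0.05. Molm13 points lie mostly left of 0, down to −1.27 for HNRNPAB, whereas THP1 points lie on both sides, from −0.53 for SNRPD3 to 0.38 for HNRNPLL.

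The effect of shPRMT9 itself was compared between the lines in a single model of all 8 libraries. The log2 fold change was higher in THP1 for 44 of 60 members and lower for 6 at an FDR below 0.05, beside 22.8% and 19.4% of 19288 genes. The median difference, THP1 minus Molm13, was 0.31 for the members and 0.029 for all genes. Calls in each line fell as follows. The genes lower in both lines numbered 15, and 5 were higher in both. SF3A3, SF3B3, SF3B4, SNRPB, SNRPC, HNRNPA3, HNRNPH3 and HNRNPLL were lower in Molm13 and higher in THP1. SRSF11 alone did the opposite, though its small rise in Molm13 was not called under DESeq2. A further 21 were lower in Molm13 and not called in THP1. The shares of all genes with each pair of calls were not computed, so these counts stand without a background. Across the 58 members tested in both lines, Pearson's r of the log2 fold changes was 0.42 and Spearman's rho 0.40, a description across genes that share libraries and depth within each line.

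**Figure D3:**
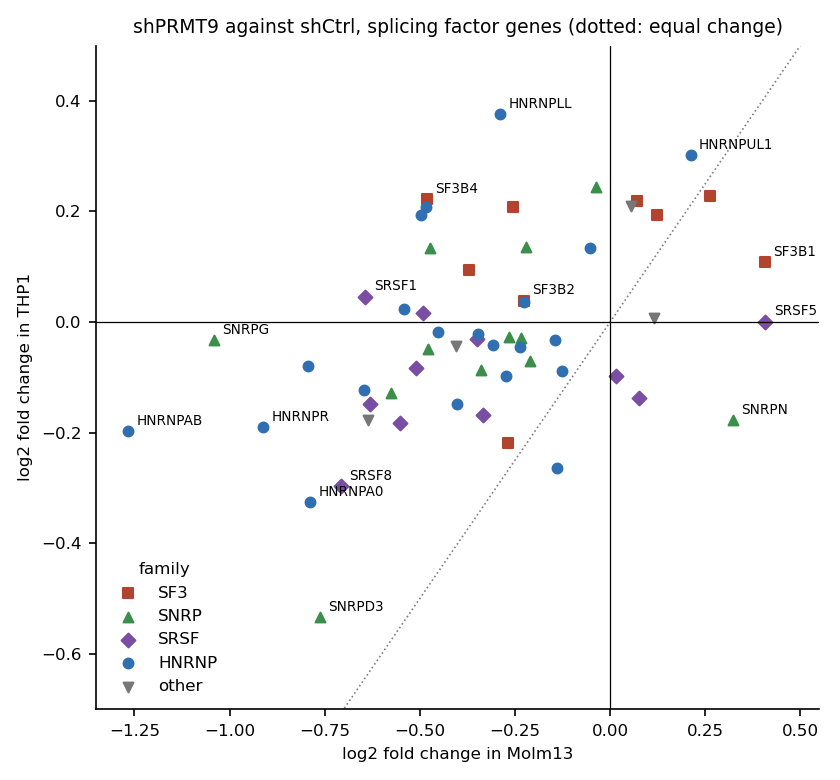
Log2 fold change in THP1 (y axis) against that in Molm13 (x axis), 1 point per gene for the same 57 members, marked by family. Most points lie left of the dotted line of equal change, and SNRPD3 is the lowest in THP1 at −0.53.

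The SF3 complex did not move as a unit in Molm13. Of the 9 subunit genes named SF3, SF3A1, SF3A2, SF3B1 and SF3B6 were higher and SF3A3, SF3B2, SF3B3, SF3B4 and SF3B5 lower. PHF5A, a subunit of the SF3B core outside the name patterns, was lower in Molm13 (−0.96) and not called in THP1 (0.071). In THP1, 7 of the 9 were higher, SF3B5 was lower and SF3B2 was not called. Among all genes tested, 33.4% were higher and 33.5% lower in Molm13, and 19% and 18.6% in THP1. Without shCtrl replicate 1 of Molm13, 2 SF3 genes were higher in that line. The SF3 genes together took 0.227% and 0.228% of counts in Molm13 shCtrl against 0.234% and 0.235% in shPRMT9, and 0.201% and 0.200% against 0.212% and 0.215% in THP1. The sum was thus slightly higher with shPRMT9 in both lines, but in Molm13 this rested on SF3B1. Without SF3B1, the share of the other 8 genes went from 0.153% and 0.152% to 0.136% and 0.135% in Molm13, a lower sum as in the SNRP, SRSF and HNRNP genes. In THP1, it went from 0.146% and 0.144% to 0.154% and 0.157%.

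SF3B2 (ENSG00000087365; chromosome 11, 66050729 to 66069308, hg38), the SF3B subunit that PRMT9 methylates, stood at 29.1 and 29.6 RPKM in Molm13 shCtrl and 24.6 and 25.5 in shPRMT9. Both shPRMT9 libraries were below the controls, a log2 fold change of −0.23 ± 0.028 (SE, edgeR quasi-likelihood test, adjusted p = 1.55e-09). In THP1, values of 34.5 and 33.3 RPKM in shCtrl and 34.6 and 35.0 in shPRMT9 gave 0.038 ± 0.032 (SE, edgeR adjusted p = 0.374). Here the groups were separated only by the margin between the higher control and the lower shPRMT9 library. The difference between the lines was 0.28 ± 0.042 (SE, edgeR adjusted p = 2.32e-08).

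SF3B1, the large scaffold subunit that contacts the branch point, rose most within the complex in Molm13. It stood at 80.6 and 83.0 RPKM in shCtrl and 108 and 109 in shPRMT9, a log2 fold change of 0.41 ± 0.023 (SE, edgeR adjusted p = 4.68e-20). In THP1, it stood at 59.4 and 59.5 against 64.3 and 63.9 RPKM, a smaller rise of 0.11 ± 0.029 (SE, edgeR adjusted p = 0.00353). Groups were apart in both lines, and the rise was smaller in THP1 by 0.29 (difference −0.29 ± 0.037, SE, edgeR adjusted p = 9.6e-11).

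SF3B4, which binds RNA upstream of the branch point, went in opposite directions. Its level fell from 56.4 and 55.3 to 39.9 and 40.1 RPKM in Molm13 (log2 fold change −0.48 ± 0.037, SE, edgeR adjusted p = 2.65e-15). It rose from 49.4 and 45.3 to 54.6 and 55.9 RPKM in THP1 (0.22 ± 0.043, SE, edgeR adjusted p = 0.000126). Their difference was 0.72 ± 0.056 (SE, edgeR adjusted p = 2.69e-20), the largest of the 9 genes named SF3 but below that of PHF5A (1.05). SF3A3, which joins SF3A to U2, and SF3B3, a scaffold of SF3B, showed the same reversal, at −0.25 and −0.37 in Molm13 and 0.21 and 0.093 in THP1.

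By contrast, SF3B5 and SF3A2 changed alike in both lines as far as these libraries resolve. SF3B5, a small subunit of the SF3B core, went from 133 and 131 to 115 and 104 RPKM in Molm13 and from 141 and 133 to 118 and 118 in THP1. All shPRMT9 libraries were lower, with log2 fold changes of −0.27 ± 0.044 and −0.22 ± 0.044 (SE, edgeR adjusted p = 8.67e-07 and 0.000203), and the difference was 0.063 ± 0.062 (SE, edgeR adjusted p = 0.464). SF3A2, an SF3A subunit needed for branch point binding, rose from 34.7 and 34.6 to 42.0 and 41.1 RPKM in Molm13 and from 38.1 and 38.2 to 43.3 and 46.2 in THP1. The rises were 0.26 ± 0.036 and 0.23 ± 0.040 (SE, edgeR adjusted p = 1.74e-08 and 3.42e-05). A difference of −0.021 ± 0.054 was not called (SE, edgeR adjusted p = 0.841). SF3A1 and SF3B6 were also higher in both lines, at 0.072 and 0.12 in Molm13 and 0.22 and 0.19 in THP1. Under DESeq2, their rises in Molm13 were not called.

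**Figure D4:**
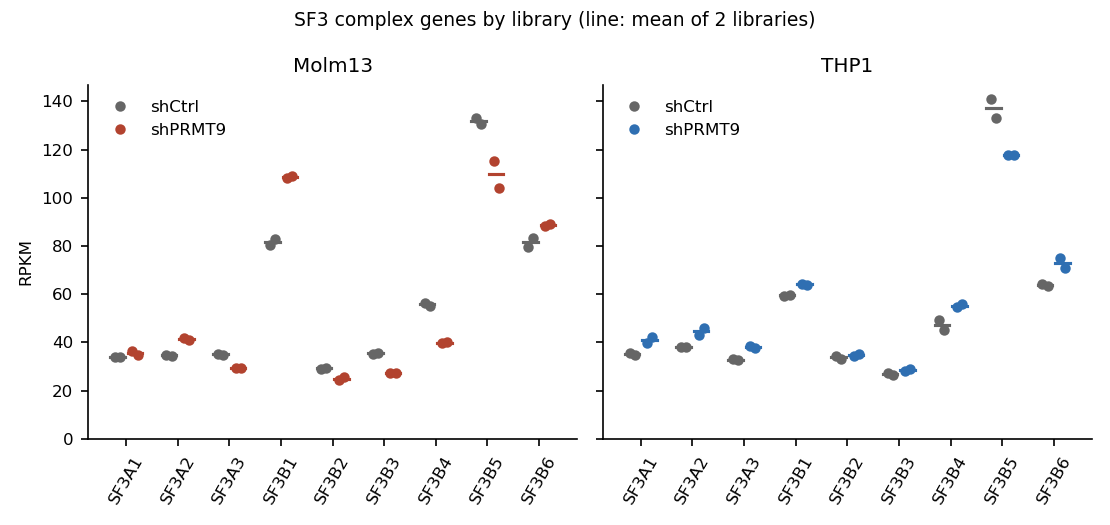
RPKM (y axis, from 0) of the 9 SF3 genes (x axis) in each library of Molm13 (left) and THP1 (right), with a line at the mean of 2 libraries. SF3B1 rises from 80.6 and 83.0 to 108 and 109 in Molm13, and SF3B5 is lower with shPRMT9 in both lines.

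The 7 genes of the Sm ring (SNRPB, SNRPD1, SNRPD2, SNRPD3, SNRPE, SNRPF and SNRPG) all fell in Molm13, with log2 fold changes from −1.04 to −0.21 and a median of −0.48. In THP1, SNRPD3 and SNRPD1 fell, SNRPB rose and 4 were not called, with a median of −0.070. Among all genes tested, 33.5% were lower in Molm13, and 18.6% were lower and 19% higher in THP1. Over all 12 SNRP genes, 3 were higher and 2 lower in THP1, and 1 and 1 without shCtrl replicate 2 of that line (1 lower also without shPRMT9 replicate 1). The SNRP genes together took 0.124% and 0.121% of counts in Molm13 shCtrl and 0.0961% and 0.0966% in shPRMT9. In THP1, the same sum was 0.107% and 0.107% against 0.101% and 0.101%. The step was thus wider in Molm13.

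SNRPD3, an Sm ring subunit, was the member with the largest fall in THP1 and fell in Molm13 too. In Molm13, 57.0 and 57.8 RPKM in shCtrl went to 33.2 and 34.4 in shPRMT9, a log2 fold change of −0.76 ± 0.037 (SE, edgeR adjusted p = 2.31e-22). In THP1, 51.0 and 51.1 went to 36.6 and 33.9 RPKM, a change of −0.53 ± 0.042 (SE, edgeR adjusted p = 3.44e-11). The groups were well apart in both lines. The fall was deeper in Molm13, with a difference of 0.24 ± 0.057 (SE, edgeR adjusted p = 0.000172).

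SNRPG, the smallest of the ring proteins, fell only in Molm13 and its level there is uncertain. Counts of 360 and 344 in shCtrl and 151 and 191 in shPRMT9, or 9.82 and 9.80 against 4.50 and 5.0 RPKM, gave a log2 fold change of −1.04 ± 0.096 (SE, edgeR adjusted p = 4.48e-13). In THP1, the values were 63.0 and 63.7 against 62.2 and 61.7 RPKM, with a change of −0.033 ± 0.039 (SE, edgeR adjusted p = 0.557). The difference was 1.02 ± 0.10 (SE, edgeR adjusted p = 3.88e-15). With the counts on its copies added, the Molm13 change was −0.996 ± 0.053 (SE, edgeR adjusted p = 8.99e-20), a fall of similar size. Reads shared between copies can also go uncounted, and their part was not tested.

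SNRPN, whose Sm protein is close to that of SNRPB and whose transcript also encodes SNURF, was the single SNRP gene that rose in Molm13. It went from 8.70 and 8.53 to 10.4 and 11.1 RPKM, a log2 fold change of 0.32 ± 0.067 (SE, edgeR adjusted p = 4.21e-05). In THP1, it was low, at 2.52 and 2.34 RPKM in shCtrl and 2.27 and 2.02 in shPRMT9 (−0.18 ± 0.12, SE, edgeR adjusted p = 0.284). The difference of −0.49 ± 0.14 was called (SE, edgeR adjusted p = 0.00245). Because SNRPN and SNURF overlap, counts of either are uncertain.

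Outside the ring, the SNRP genes include proteins particular to U1 and U2. SNRPA and SNRPC, subunits of U1, were lower in Molm13 (−0.26 and −0.22), and in THP1 SNRPC was higher (0.13) while SNRPA was not called (−0.028). SNRPA1, a U2 subunit, was lower in Molm13 (−0.23) and not called in THP1 (−0.030). SNRPB2, its partner in U2, stood at 53.0 and 50.0 RPKM in Molm13 shCtrl and 49.8 and 50.7 in shPRMT9, where the groups overlapped (log2 fold change −0.036 ± 0.035, SE, edgeR adjusted p = 0.378). In THP1, it rose from 14.1 and 13.7 to 16.2 and 16.6 RPKM, the largest rise among the SNRP genes of that line (0.24 ± 0.057, SE, edgeR adjusted p = 0.00104), and the difference was 0.29 ± 0.066 (SE, edgeR adjusted p = 9.81e-05). U2AF2, the large U2AF subunit, fell from 69.9 and 72.5 to 54.6 and 53.0 RPKM in Molm13 (−0.41) and was not called in THP1 (−0.043).

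Of 11 SR protein genes tested in both lines, 8 were lower and 2 higher in Molm13 (median log2 fold change −0.49). Of all genes tested in Molm13, 33.5% were lower and 33.4% higher. In THP1, 7 SR protein genes were lower and 0 higher (median −0.097), beside 18.6% and 19% of all genes. Without shCtrl replicate 1 of Molm13, 1 was higher there. Their summed share of counts went from 0.346% and 0.346% to 0.271% and 0.275% in Molm13. In THP1, it went from 0.278% and 0.281% to 0.263% and 0.256%, a smaller step in the same direction.

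SRSF1, the first SR protein described and a regulator of many exons, fell in Molm13 alone. The values were 162 and 160 RPKM in shCtrl and 102 and 104 in shPRMT9, a log2 fold change of −0.64 ± 0.025 (SE, edgeR adjusted p = 8.82e-26). In THP1, values of 122 and 123 against 129 and 124 RPKM gave 0.046 ± 0.031 (SE, edgeR adjusted p = 0.27). The difference was 0.70 ± 0.040 (SE, edgeR adjusted p = 7.83e-29).

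SRSF2, which binds exonic enhancers, fell in both lines. It went from 153 and 157 to 98.4 and 102 RPKM in Molm13 (−0.63 ± 0.026, SE, edgeR adjusted p = 1.22e-24) and from 145 and 144 to 131 and 131 in THP1 (−0.15 ± 0.030, SE, edgeR adjusted p = 0.000227). No library of either line crossed between groups, and the fall was 0.50 ± 0.040 deeper in Molm13 on the log2 scale (SE, edgeR adjusted p = 1.25e-19). SRSF8, an intronless relative of SRSF2, was much lower in level. Its values were 4.45 and 4.19 against 2.85 and 2.46 RPKM in Molm13 and 9.36 and 9.12 against 7.65 and 7.37 in THP1. Both falls were called, at −0.71 ± 0.093 and −0.30 ± 0.061 (SE, edgeR adjusted p = 7.07e-09 and 0.00026), and the fall was the largest of the SRSF genes in each line. Their difference, 0.42 ± 0.12, was called as well (SE, edgeR adjusted p = 0.00146), but without shPRMT9 replicate 2 of Molm13 it was 0.28 (edgeR, adjusted p = 0.121).

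SRSF5, an SR protein that shuttles between nucleus and cytoplasm, went against its family in Molm13. It rose from 29.7 and 29.6 to 39.6 and 39.2 RPKM, the largest rise of any tested member there beside that of SF3B1 (0.41 ± 0.030, SE, edgeR adjusted p = 7.49e-16). In THP1, 41.6 and 41.2 against 41.3 and 41.6 RPKM overlapped (0.0006 ± 0.033, SE, edgeR adjusted p = 0.99), and the difference was −0.39 ± 0.045 (SE, edgeR adjusted p = 1.83e-12). SRSF11, which acts with other SR proteins at 3′ splice sites, was slightly higher in Molm13 (0.077) and lower in THP1 (−0.14). Its rise in Molm13 was not called under DESeq2 or with no filter on low counts. SRSF3, SRSF7, SRSF9 and SRSF10 fell in Molm13 by 0.33 to 0.55 on the log2 scale, and SRSF4 by 0.35. All of these but SRSF4 and SRSF7 were also lower in THP1, where SRSF10 had −0.18 and SRSF9 −0.17. SRSF6 was not called in Molm13 (0.016) and lower in THP1 (−0.097).

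The HNRNP family carried most of the counts. In Molm13, 19 of 22 tested genes were lower and 1 was higher, with a median of −0.33, beside 33.5% and 33.4% of all genes. In THP1, 6 of 21 were lower and 5 higher, with a median of −0.041, beside 18.6% and 19% of all genes. The family took 1.21% and 1.21% of counts in Molm13 shCtrl and 0.923% and 0.926% in shPRMT9. In THP1, the share went from 1.09% and 1.10% to 1.06% and 1.05%.

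HNRNPAB (ENSG00000197451; chromosome 5, 178204507 to 178211163, hg38), an A/B-type hnRNP also known for transport of mRNA, had the largest change of all members. It fell from 123 and 127 to 50.9 and 52.7 RPKM in Molm13 (log2 fold change −1.27 ± 0.032, SE, edgeR adjusted p = 1.45e-32). Relative to the controls, the level fell by 58.4%. In THP1, it went from 176 and 176 to 154 and 153 RPKM (−0.20 ± 0.031, SE, edgeR adjusted p = 6.34e-06). The difference of 1.08 ± 0.045 was the largest between the lines (SE, edgeR adjusted p = 2.66e-38).

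The other A/B genes also fell in Molm13. HNRNPA0 went from 22.1 and 22.7 to 12.9 and 13.1 RPKM (−0.79 ± 0.033, SE, edgeR adjusted p = 1.35e-24). In THP1, it went from 18.9 and 19.3 to 14.9 and 15.6, the largest HNRNP fall of that line (−0.33 ± 0.038, SE, edgeR adjusted p = 5.63e-08), with a difference of 0.48 ± 0.051 (SE, edgeR adjusted p = 7.84e-14). HNRNPA0 stabilizes mRNAs with AU-rich elements, and all 4 shPRMT9 libraries were below their controls.

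HNRNPA2B1, an abundant hnRNP with roles in splicing and RNA export, fell from 261 and 259 to 167 and 165 RPKM in Molm13 (−0.65 ± 0.021, SE, edgeR adjusted p = 9.4e-29). The fall in THP1 was from 252 and 248 to 231 and 228 RPKM (−0.12 ± 0.027, SE, edgeR adjusted p = 0.000508). Groups did not overlap in either line, and the difference was 0.54 ± 0.033 (SE, edgeR adjusted p = 1.71e-26). HNRNPA1, its closest well-studied relative, was the exception to the deeper fall in Molm13. It went from 82.4 and 79.6 to 72.9 and 74.2 RPKM in Molm13 (−0.14 ± 0.026, SE, edgeR adjusted p = 8.04e-06) and from 146 and 140 to 120 and 119 in THP1 (−0.26 ± 0.030, SE, edgeR adjusted p = 2.93e-08). The difference was −0.11 ± 0.039 (SE, edgeR adjusted p = 0.0138), and with counts on its 75 copies added it was −0.088 and no longer called (edgeR, adjusted p = 0.0523). HNRNPA3 was lower in Molm13 (−0.50) and higher in THP1 (0.19).

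HNRNPF and the HNRNPH genes bind G-rich RNA. HNRNPF went from 266 and 271 to 154 and 155 RPKM in Molm13 (−0.79 ± 0.023, SE, edgeR adjusted p = 3.57e-30), and the most abundant member of that line thus fell by 42.3%. In THP1, 110 and 103 against 102 and 98.9 RPKM gave −0.079 ± 0.034 (SE, edgeR adjusted p = 0.0675), and the difference was 0.73 ± 0.040 (SE, edgeR adjusted p = 5.24e-30). The means of the THP1 groups, 106 and 100 RPKM, differed by less than the controls differed from each other. HNRNPH1 and HNRNPH2 were lower in Molm13 (−0.31 and −0.15) and not called in THP1, while HNRNPH3 was lower in Molm13 (−0.48) and higher in THP1 (0.21).

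HNRNPR, which resembles SYNCRIP and binds many mRNAs, fell from 41.3 and 42.7 to 22.4 and 22.2 RPKM in Molm13 (−0.91 ± 0.028, SE, edgeR adjusted p = 1.3e-29). In THP1, it fell from 34.8 and 33.9 to 30.3 and 29.9 RPKM (−0.19 ± 0.032, SE, edgeR adjusted p = 2.32e-05), and the difference was 0.73 ± 0.043 (SE, edgeR adjusted p = 3.94e-28). Every shPRMT9 library was below both controls of its line.

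HNRNPLL, known for the splicing of PTPRC in lymphocytes, reversed between the lines. Values of 10.3 and 10.1 RPKM fell to 8.34 and 8.38 in Molm13 (−0.29 ± 0.049, SE, edgeR adjusted p = 1.51e-06) and 5.82 and 6.16 rose to 8.02 and 7.54 in THP1 (0.38 ± 0.059, SE, edgeR adjusted p = 6.92e-06). The THP1 rise was the largest called there among the members, and the difference was 0.68 ± 0.078 (SE, edgeR adjusted p = 1.76e-12). HNRNPL, its more abundant relative, was lower in Molm13 (−0.54) and not called in THP1 (0.024).

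HNRNPUL1, a relative of HNRNPU with a role at DNA breaks, was the only HNRNP gene called higher in both lines. It rose from 62.1 and 62.9 to 72.3 and 72.4 RPKM in Molm13 (0.21 ± 0.025, SE, edgeR adjusted p = 4.22e-10) and from 66.8 and 65.4 to 80.1 and 82.8 in THP1 (0.30 ± 0.030, SE, edgeR adjusted p = 4.43e-09). The difference of 0.10 ± 0.039 was called (SE, edgeR adjusted p = 0.0247), but not under DESeq2 (0.077, adjusted p = 0.163) or under most other settings. HNRNPU, a nuclear scaffold protein, went from 208 and 214 to 181 and 180 RPKM in Molm13 (−0.23) and was not called in THP1 (0.036).

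HNRNPD and HNRNPDL bind AU-rich RNA, and the study's arginine methylation tables list peptides of both proteins, as they do for HNRNPA1, HNRNPA2B1 and KHDRBS1. HNRNPD went from 89.9 and 91.3 to 70.9 and 71.6 RPKM in Molm13 (−0.35 ± 0.024, SE, edgeR adjusted p = 5.73e-17). In THP1, 76.8 and 75.3 against 74.8 and 75.1 RPKM gave −0.021 ± 0.029 (SE, edgeR adjusted p = 0.622), and the difference was 0.34 ± 0.038 (SE, edgeR adjusted p = 5.06e-13). HNRNPDL went from 99.2 and 100 to 75.1 and 75.7 RPKM in Molm13 (−0.40 ± 0.024, SE, edgeR adjusted p = 8.07e-19). The THP1 values were 70.8 and 70.3 against 64.1 and 63.1 RPKM (−0.15 ± 0.031, SE, edgeR adjusted p = 0.00026), with a difference of 0.27 ± 0.039 (SE, edgeR adjusted p = 8.58e-09).

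KHDRBS1 (Sam68), a signal-dependent regulator of splicing, was not called lower in either line. It stood at 77.5 and 76.8 RPKM in Molm13 shCtrl and 80.3 and 80.0 in shPRMT9 (0.055 ± 0.027, SE, edgeR adjusted p = 0.0663). With library size alone as the scaling, the Molm13 change was called (0.060, edgeR adjusted p = 0.0318), as it was with a filter of more than 1 CPM in at least 2 libraries (0.063, edgeR adjusted p = 0.0269). In THP1, it rose from 69.2 and 67.3 to 78.8 and 79.1 RPKM (0.21 ± 0.032, SE, edgeR adjusted p = 6.25e-06), with a difference of 0.17 ± 0.042 (SE, edgeR adjusted p = 0.000528). Without shPRMT9 replicate 2 of Molm13, the difference was 0.13 (edgeR adjusted p = 0.0517). Both shPRMT9 libraries lay above both controls in each line.

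NONO (p54nrb) and SFPQ form a dimer in nuclear paraspeckles, and their transcripts moved apart. NONO went from 89.6 and 89.5 to 97.4 and 96.7 RPKM in Molm13 (0.12 ± 0.024, SE, edgeR adjusted p = 5.35e-05). In THP1, 85.9 and 83.1 against 84.2 and 85.7 RPKM overlapped (0.0072 ± 0.030, SE, edgeR adjusted p = 0.883), and the difference was −0.095 ± 0.039 (SE, edgeR adjusted p = 0.0385). SFPQ fell from 106 and 108 to 68.2 and 69.7 RPKM in Molm13 (−0.64 ± 0.024, SE, edgeR adjusted p = 2.17e-26) and from 90.9 and 90.9 to 80.7 and 80.2 in THP1 (−0.18 ± 0.029, SE, edgeR adjusted p = 1.15e-05). The difference for SFPQ was 0.47 ± 0.037 (SE, edgeR adjusted p = 2.84e-20).

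The remaining HNRNP genes were lower in Molm13 with 2 exceptions among those tested. HNRNPM (−0.45), HNRNPK (−0.24), HNRNPA1L2 (−0.27) and HNRNPUL2 (−0.13) were lower in Molm13 and not called in THP1. HNRNPC was not called in Molm13 (−0.054, adjusted p = 0.0544 in edgeR) and higher in THP1 (0.13). HNRNPCL1, low and counted only in the Molm13 table, was not called (−0.12). U2AF1 was called in neither line, and HNRNPCL2, HNRNPCL3 and HNRNPCL4 could not be tested in either.

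Of 108 further spliceosome and RNA-binding genes outside the name patterns, 106 were tested in each line. In Molm13, 71 were lower and 14 higher (median log2 fold change −0.26), beside 33.5% and 33.4% of all genes. In THP1, 29 were lower and 15 higher (median −0.033), beside 18.6% and 19% of all genes. Fewer were called higher there without shCtrl replicate 2. By the DEG limits, 17 were lower and 1 higher in Molm13, beside 11.3% and 11.4% of all genes. In THP1, 1 was lower and 0 were higher, beside 2.39% and 3.83%. None of them (0 genes) was a DEG in both lines.

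These genes were divided by role into 6 lists, whose counts are to be read against the same shares of all genes. Among U2 and branch site factors, 9 of 14 were lower and 3 higher in Molm13, with DDX46, an RNA helicase of U2, at −1.01 and PHF5A, a subunit of the SF3B core, at −0.96. In THP1, both were not called, at 0.042 and 0.071. Of 27 U1 and tri-snRNP genes, 17 were lower and 4 higher in Molm13, with the U5 protein gene SNRNP40 at −1.02 and USP39, a tri-snRNP protein, at −0.86, while THP1 had 5 lower and 8 higher. Of the 10 LSm genes, whose proteins form rings on U6 and on decaying mRNA, 9 were lower in Molm13, with LSM4 at −0.91 and LSM6 at −0.82, and 3 in THP1. The 14 genes of Sm ring assembly had 9 lower and 1 higher in Molm13, led by WDR77 (−1.03) and COPRS (−0.73), both partners of PRMT5, and 1 lower and 1 higher in THP1.

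The kinases that phosphorylate SR proteins went different ways. SRPK1, the cytoplasmic kinase that sends SR proteins to the nucleus, had counts of 5243 and 5101 in Molm13 shCtrl and 2645 and 2998 in shPRMT9 (−0.87 ± 0.030, SE, edgeR adjusted p = 1.14e-27), and was not called in THP1 (−0.071). SRPK2 was lower in both lines, at −0.53 in Molm13 and −0.69 in THP1, where counts of 1132 and 1271 went to 693 and 704. The nuclear kinases CLK1, CLK3 and CLK4, named here after their values were seen, were higher in Molm13, at 0.51, 0.44 and 0.58. CLK2 was called in neither line, at −0.084 in Molm13 and −0.033 in THP1. In THP1, CLK3 was lower (−0.19), and CLK1 and CLK4 were not called. RBM5, a branch site factor also named after its values were seen, rose in Molm13 (0.67) as the single DEG that was higher. Over the 18 SR kinases and SR-related genes, 11 were lower and 5 higher in Molm13, and 7 lower and 2 higher among 17 in THP1. Of 25 hnRNP relatives, 16 were lower and 1 higher in Molm13, with ELAVL1 at −0.71 and SYNCRIP at −0.57, and 10 lower and 4 higher in THP1.

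Myeloid markers moved with the knockdown in the same libraries. The summed RPKM of 9 such genes was 591 to 595 in Molm13 shCtrl and 865 to 866 in shPRMT9, and it ran from 1343 to 2123 in THP1. ITGAM, a gene of mature myeloid cells, stood at 5.45 and 5.18 RPKM in Molm13 shCtrl and 20.5 and 20.6 in shPRMT9, and at 4.16 and 3.98 against 9.17 and 8.87 in THP1. LYZ, which encodes lysozyme, made up most of each sum, at 359 and 360 RPKM in Molm13 shCtrl and 565 and 573 in shPRMT9, and at 1073 and 1066 against 1789 and 1705 in THP1. SPI1, CD33 and CSF1R also had higher values in the shPRMT9 libraries of both lines, whereas MPO, a gene of earlier myeloid cells, had lower values in both. CD14 was higher with shPRMT9 in THP1, at 0.497 and 0.458 RPKM in shCtrl against 2.44 and 2.61. In Molm13, CD14 was near 0, at 0.104 and 0.163 against 0.227 and 0.174 RPKM. CEBPA was higher with shPRMT9 in Molm13 but lower in THP1, at 136 and 131 RPKM in shCtrl and 124 and 121 in shPRMT9. FCGR1A was lower in Molm13, at 3.58 and 3.75 against 2.68 and 2.73 RPKM, and overlapped between the groups in THP1. The part of these changes in the fall of splicing factor transcripts was not tested.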

How the data were processed

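Polyadenylated RNA of 8 libraries was measured. Per the submitters' processing notes, TopHat2 2.0.8, HTSeq 0.11.2, edgeR 3.30.3 and hg38 were used, while the annotation and strand setting are not given in the sources used here. The authors deposited raw read counts per gene in a table for each line. Genes of the THP1 table were matched by identifier, and 59 of the 63 members have the same start and end in GENCODE release 29.

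Analyses were run in R 4.3.3 with edgeR 4.0.16 and limma 3.58.1 on each line alone: TMM normalization, filterByExpr, quasi-likelihood test, Benjamini-Hochberg adjustment over all genes tested. Standard errors were obtained by dividing the size of the log2 fold change by the root of the F statistic. RPKM used the exon lengths of the Molm13 table and TMM-scaled library sizes. A fit of all 8 libraries tested the difference between lines. DESeq2 1.42.0, other normalizations, filters and fold limits, a replicate block, a joint fit and leaving out each library were alternatives. The tests were tried on simulated counts.

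Members and lists were chosen with earlier results of these data known. Statistics are given for DEGs, SF3B2, members with methylated peptides in the study, NONO, the largest rise and fall per family and line, and the 3 largest differences in each direction. Of related genes, the 2 largest changes per list are named. Replicates differed by more than sampling noise (chi-square per gene 1.35 to 2.17), and the biological coefficient of variation was 0.0201 in Molm13 and 0.0247 in THP1.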

Additional observations from a re-analysis of the deposited data

Results flagged for a closer look

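A difference between the lines in response to shPRMT9 was called for 24 of the 26 members described with statistics. The call used the interaction term of edgeR's quasi-likelihood test at an FDR below 0.05. Many of the 26 were named for large changes or differences in these same data, so this share partly follows from their choice. Of all 60 members in this fit, the log2 fold change was higher in THP1 for 44 and lower for 6, beside 22.8% and 19.4% of 19288 genes. All values are differences of log2 fold change, THP1 minus Molm13. The fall in Molm13 was deeper, or the rise in THP1 larger, for HNRNPAB (1.08), SNRPG (1.02), HNRNPR (0.735), HNRNPF (0.729), SF3B4 (0.717), SRSF1 (0.702) and HNRNPLL (0.678). Differences of middle size were found for HNRNPA2B1 (0.539), SRSF2 (0.497), HNRNPA0 (0.476), SFPQ (0.473), SRSF8 (0.422) and HNRNPD (0.338). Smaller differences in the same direction were those of SNRPB2 (0.294), SF3B2 (0.278), HNRNPDL (0.266), SNRPD3 (0.243), KHDRBS1 (0.168) and HNRNPUL1 (0.103). The log2 fold change was lower in THP1 for SNRPN (−0.486), SRSF5 (−0.394), SF3B1 (−0.286), HNRNPA1 (−0.112) and NONO (−0.095). Line and table cannot be told apart in these differences. With 2 libraries per group, no single library could be examined as an outlier.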

How the results depend on the processing

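The count of members lower in Molm13 at an FDR below 0.05 ran from 41 to 45 over all alternatives and that of members higher from 6 to 10, and in THP1 the ranges were 14 to 21 lower and 13 to 16 higher. The difference between the lines was called for 38 to 44 members higher in THP1 and 5 to 7 lower. Moving the fold limit of a DEG to 1.2 gave 34 lower and 3 higher in Molm13 and 4 lower and 2 higher in THP1, and a limit of 2 left 2 lower in Molm13. Leaving out 1 library at a time gave a median log2 fold change of −0.3405 to −0.2912 in Molm13 and −0.03827 to −0.009644 in THP1, and 0 to 1 members lower by the DEG limits in THP1. In these fits the lone sample of a group is assumed to vary like the other group. The THP1 median was −0.0583 with library size alone and −0.04442 with no filter on low counts, where the median of all genes turned to 0.016. DESeq2 called 2 SF3 and 1 SRSF genes higher in Molm13 and 1 SNRP gene lower in THP1. The replicate numbers did not pair the samples (correlation of deviations −0.0076 in Molm13 and −0.086 in THP1). With the replicate block, 45 members were lower in Molm13 and 15 in THP1, and the difference for NONO lost its call. Of single genes, 0 called changes reversed, and the difference for HNRNPUL1 lost its call under 13 settings. In THP1, HNRNPF passed the FDR under 5 alternatives. Low counts limit U2AF1, SRSF12 and the HNRNPCL genes, though for U2AF1 the part of depth in this was not tested, and 2 libraries per group limit all p-values.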
